A study of Homo sapiens with 36 samples.

Results

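Messenger RNA levels of 48 genes that add, remove or read methyl groups on histone lysines were examined in mantle cell lymphoma cells given an inhibitor of the KDM5 demethylases. The 48 genes were chosen by symbol, with earlier results of these data known. Each symbol was matched to an Ensembl gene ID through GENCODE release 44. All 48 were found among the 58302 gene IDs of the count tables, and all 48 passed the low-count filter in every fit. The question put to them was whether inhibition of KDM5 was met by changes in the other writers and erasers.

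RNA sequencing had been done on JEKO, MINO and UPN-1, 3 established human cell lines of mantle cell lymphoma, a B-cell cancer. Cells of each line had received the vehicle DMSO or GS716054, which the series names as an inhibitor of the KDM5 family, and were collected 24 h or 72 h later. Each of the 12 groups of line, treatment and time held 3 libraries labelled as biological replicates, 36 libraries in all. The dose of GS716054 was not given in the sources used here, and each line stands for a single tumour. The p-values measure the spread between libraries with different replicate numbers, and the labels do not say how the replicate cultures were set up.

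Methyl groups on histone tails are placed by writers, most of which share a SET domain, and removed by erasers of the amine oxidase and Jumonji families. Trimethylation of H3K4 marks active promoters, monomethylation of H3K4 marks enhancers, methylation of H3K9 and H3K27 accompanies silent chromatin, and methylation of H3K36 and H3K79 lies over transcribed genes. KDM5 enzymes take methyl groups off H3K4, so they oppose the KMT2 and SETD1 writers at promoters. In B-cell lymphomas, mutations of EZH2, KMT2D and NSD2 are well known.

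By role, the erasers were the KDM5 enzymes KDM5A, KDM5B and KDM5C, the other H3K4 erasers KDM1A and KDM1B, the H3K36 erasers KDM2A and KDM2B, the H3K9 erasers KDM3A, KDM3B, JMJD1C, KDM4A, KDM4B, KDM4C, KDM7A, PHF8 and PHF2, and the H3K27 erasers KDM6A and KDM6B. ZMYND8, a chromatin reader that can act together with KDM5 proteins, stood alone in its group. The writers of H3K4 and their relatives were KMT2A, KMT2B, KMT2C, KMT2D, KMT2E, SETD1A, SETD1B and SETD7, with the subunits ASH2L, WDR5, RBBP5, DPY30 and MEN1. The H3K36 writers were SETD2, NSD1, NSD2, NSD3 and ASH1L, and the H3K27 writer PRC2 was represented by EZH1, EZH2, EED and SUZ12. EHMT1, EHMT2, SUV39H1 and SUV39H2 write H3K9, DOT1L writes H3K79, and KMT5A and KMT5B write H4K20.

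The promoters of the 3 members on which the treatment results turned are shown first, as the 250 bases before the annotated start in RefSeq GRCh38.p14, read 5′ to 3′ on the gene's strand. Capitals mark CCGCCC or its reverse complement GGGCGG. These letters are the reported target of the DNA-binding ARID domain of KDM5A and also the core of the GC box read by Sp factors. ZMYND8 lies on the minus strand at chr20:47356700-47356949, KDM5B on the minus strand at chr1:202808422-202808671 and SETD7 on the minus strand at chr4:139556220-139556469.
ZMYND8: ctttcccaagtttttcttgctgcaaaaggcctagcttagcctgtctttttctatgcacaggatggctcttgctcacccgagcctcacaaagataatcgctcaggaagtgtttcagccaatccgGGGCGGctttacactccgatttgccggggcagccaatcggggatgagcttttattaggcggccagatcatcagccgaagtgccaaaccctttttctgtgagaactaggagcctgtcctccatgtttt
KDM5B: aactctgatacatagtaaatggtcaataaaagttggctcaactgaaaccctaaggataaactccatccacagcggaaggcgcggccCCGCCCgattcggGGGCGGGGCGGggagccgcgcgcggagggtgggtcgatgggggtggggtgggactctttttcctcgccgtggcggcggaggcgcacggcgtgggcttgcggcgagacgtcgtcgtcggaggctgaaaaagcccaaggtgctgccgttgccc
SETD7: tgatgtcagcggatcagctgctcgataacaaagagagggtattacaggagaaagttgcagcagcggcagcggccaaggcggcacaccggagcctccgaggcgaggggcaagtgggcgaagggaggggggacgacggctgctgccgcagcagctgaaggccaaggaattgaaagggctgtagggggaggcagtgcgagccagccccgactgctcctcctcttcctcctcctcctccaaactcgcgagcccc
The ZMYND8 window held 1 match to CCGCCC on either strand, the KDM5B window held 3, of which a pair shared 1 base, and the SETD7 window held 0. Other letters counted in the same way were GCACA, with 1, 0 and 1 matches in that order, and CACGTG, with 0 in each. A link between any of these letters and the treatment results was not tested. The RefSeq starts of all 3 lay inside the gene spans of GENCODE, which begin further upstream, so other starts of these genes are not covered.

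A RefSeq promoter was found for 43 of the 48 members, all but SETD1B, ASH2L, DPY30, NSD3 and DOT1L. CCGCCC occurred on either strand in 31 of these 43 windows (72.1%), in 65.2% of 11666 promoters of genes tested over all libraries and in 42.3% of 27305 promoters in all. GCACA occurred in 39.5% of the member windows and 31.5% of promoters of tested genes, and CACGTG in 14% and 8.73%. The median GC content was 67.2% in the members and 64.8% in promoters of tested genes. A match is of letters only, and binding was not measured here.

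Gene reads ranged from 8784815 to 14970876 per library. Levels are given as CPM (counts per library size, with TMM scaling over all 36 libraries), and a ± stands between a group's mean and the SD of its 3 libraries. The B-cell markers MS4A1, CD79A, CD79B, PAX5 and CD22 were expressed in each line, and the summed T-cell, myeloid, fibroblast and erythroid markers stayed at or under 10 CPM in every library (marker sums are CPM without TMM scaling), while the epithelial markers reached 13.9 CPM in JEKO and 15.5 in MINO. The sum of these 5 B-cell markers ran from 2320 to 2810 CPM in MINO DMSO libraries and from 3830 to 4380 CPM in treated MINO libraries, and their part in the MINO results below was not tested. The summed mantle cell lymphoma markers CCND1, SOX11 and CD5 ran from 2680 to 3220 CPM in JEKO DMSO libraries against 1620 to 2220 in treated ones. For UPN-1 the sums ran from 2160 to 2720 against 1610 to 2060, and neither line had overlap. In MINO they overlapped, at 1870 to 2570 against 1740 to 3250. CCND1 made up most of each sum, with at least 1490 CPM in every library, against at most 320 for SOX11 and 88.4 for CD5. The part of these markers in the results was not tested either. Both MINO 72 h libraries numbered 2 and both JEKO 72 h libraries numbered 1 stood apart from their groups, and calls that change without them are given below. In bulk RNA, fewer cells of a type and less RNA per cell cannot be told apart.

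Over all 36 libraries, the median of the 48 members lay above the median gene, though members such as KDM6A, KMT2C, KMT2A and KDM5B lay below it. Per kb of exon, the only scale on which different genes are compared here, the median member had 8.76 CPM per kb, against 3.51 over 17833 genes with a length. The highest were WDR5, the scaffold subunit shared by all KMT2 and SETD1 complexes (28.2 CPM per kb), EHMT2, the H3K9 dimethylase G9a (18.6), and SUZ12, a core subunit of PRC2 (16.7). The lowest were the H3K27 eraser KDM6A (0.885 CPM per kb), the enhancer H3K4 writer KMT2C (1.49) and KMT2A, the writer disrupted in MLL-rearranged leukaemia (1.67). The length used is that of all annotated exons joined, 27.7 kb for KDM6A, 53.3 kb for KMT2C and 31.5 kb for KMT2A, so the ranking depends on the annotation. KMT2C and SUZ12 have near-identical pseudogene copies, so their counts are uncertain. The KDM5 genes were far apart, at 12.7 CPM per kb for KDM5C, 8.49 for KDM5A and 2.32 for KDM5B.

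**Figure D1:**
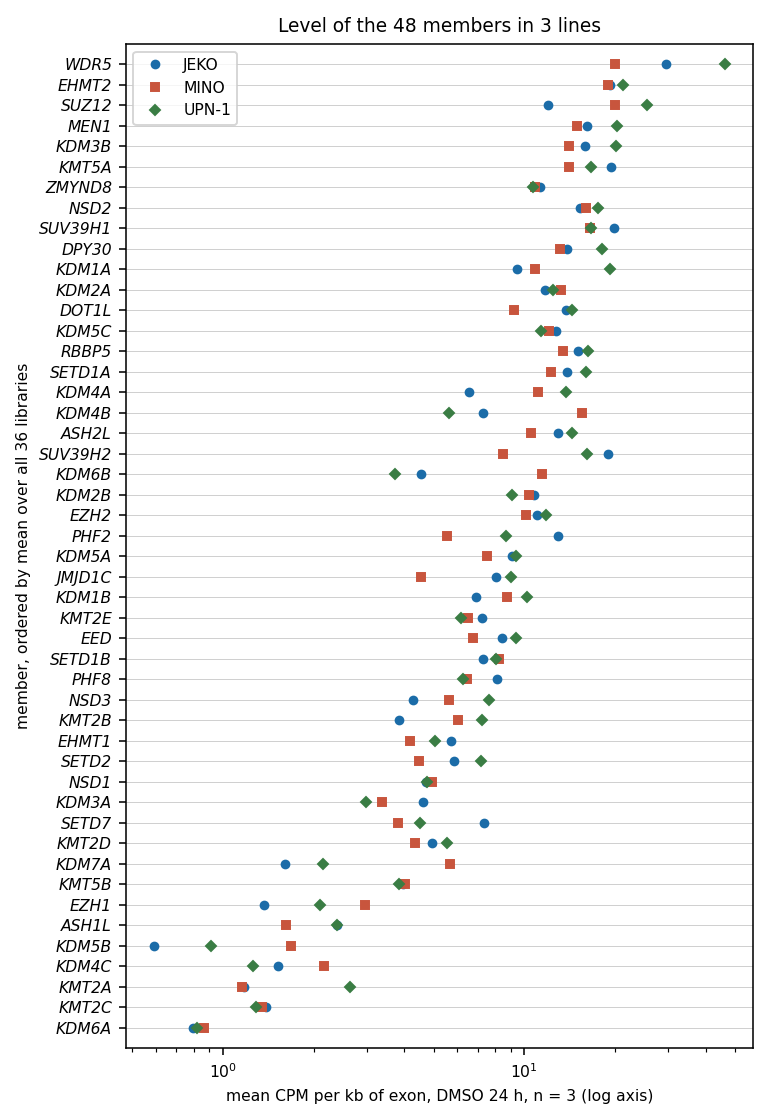
Mean CPM per kb of exon (log axis) of each of the 48 members in DMSO libraries at 24 h, with 1 point per line (n = 3 libraries each); members are ordered by their mean over all 36 libraries. KDM7A, KDM6B, KDM5B and KDM4B show MINO to the right of the other lines, and KDM1A, WDR5 and KMT2A show UPN-1 to the right.

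The level differed among the lines for 27 of 48 members in DMSO cells at 24 h (56.2%; edgeR F test over 36 libraries, adjusted p under 0.05), against 65.8% of all 17980 genes tested. Of these 27, 15 were highest in UPN-1, 6 in JEKO and 6 in MINO, and 14 were lowest in MINO. The widest gap was that of KDM7A, an eraser of H3K9 and H3K27 methylation, with 53.0 ± 13.1 CPM in MINO, 20.2 ± 1.81 in UPN-1 and 15.1 ± 1.93 in JEKO (SD, n = 3 each), 3.52-fold from lowest to highest. KDM6B, the inducible H3K27 eraser, had 84.3 ± 22.9 CPM in MINO, 33.5 ± 1.93 in JEKO and 27.4 ± 0.923 in UPN-1. The H3K9 eraser KDM4B stood at 229.3 ± 13.1 CPM in MINO, 107 ± 6.58 in JEKO and 82.7 ± 5.99 in UPN-1. In DMSO at 24 h, each MINO library lay above all libraries of the other lines for KDM7A, KDM6B, KDM4B and KDM5B.

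KDM5B was also highest in MINO, with 41.9 ± 12.7 CPM in MINO, 22.8 ± 1.05 in UPN-1 and 14.8 ± 2.50 in JEKO at that time, a 2.84-fold span. Its call for a difference among lines (adjusted p 0.0326, edgeR) did not survive the omission of JEKO DMSO 24 h replicate 1, of its replicate 3 or of MINO DMSO 24 h replicate 2, with adjusted p values up to 0.157 over the 9 omissions.

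Those targets of the inhibitor that were members, KDM5A, KDM5B and KDM5C, were read in every library. KDM5D, also of the KDM5 family, was not a member, and its levels are not given here. They differed among the lines in DMSO at 24 h (edgeR F test, adjusted p under 0.05), as did those of 65.8% of all genes. KDM5A (ENSG00000073614, GRCh38 chromosome 12, 280057 to 389320), the founding member of the family, had 114, 104 and 112 CPM in JEKO DMSO libraries 1 to 3 at 24 h and 113, 135 and 111 in the treated ones, then 56.8, 89.5 and 88.1 against 75.7, 90.2 and 84.4 at 72 h. In MINO it had 95.7, 77.2 and 98.0 CPM in DMSO and 120.4, 116 and 109 in treated libraries at 24 h, and 93.9, 127 and 95.1 against 94.5, 134 and 91.7 at 72 h. UPN-1 held 119, 99.3 and 120.4 CPM of it in DMSO and 109, 106 and 138 in treated libraries at 24 h, and 78.99, 94.8 and 106 against 78.9, 106 and 95.1 at 72 h. Treated and DMSO libraries overlapped in every comparison except MINO at 24 h, where the treated libraries were all higher. The log2 fold change of KDM5A ran from 0.01 in MINO at 72 h to 0.32 in MINO at 24 h, and KDM5A was not called in any of the 6 comparisons.

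KDM5C (ENSG00000126012, chromosome X, 53176283 to 53225422), the most abundant of the 3 per kb, had 146, 152 and 173 CPM in JEKO DMSO libraries and 169, 187 and 152 in treated ones at 24 h, with 125, 183 and 179.7 against 156, 174 and 163 at 72 h. In MINO the values were 148, 145 and 154 CPM in DMSO against 168, 170.3 and 155 at 24 h, and 164, 198 and 178 against 154, 202 and 153 at 72 h. UPN-1 held 134, 135 and 150.3 CPM of KDM5C in DMSO against 129.9, 137 and 146 at 24 h, and 128, 155 and 147 against 126, 138 and 154 at 72 h. The groups overlapped in all comparisons but MINO at 24 h, where the lowest treated library lay just above the highest DMSO library. The log2 fold changes of KDM5C stayed between -0.10 and 0.11, and it was not called in any comparison.

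KDM5B (ENSG00000117139, chromosome 1, 202724495 to 202808487), a KDM5 enzyme best known from breast cancer and stem cells, behaved differently. In JEKO it had 14.1, 17.5 and 12.6 CPM in DMSO libraries 1 to 3 and 27.3, 28.2 and 17.8 in treated ones at 24 h, and 15.3, 53.7 and 25.2 against 35.2, 62.0 and 36.8 at 72 h. In MINO it had 34.0, 56.6 and 35.2 CPM against 61.9, 106 and 64.0 at 24 h, and 64.8, 270.4 and 67.2 against 64.8, 257 and 79.9 at 72 h. In UPN-1 the values were 21.7, 22.7 and 23.8 CPM against 24.2, 25.1 and 29.4 at 24 h, and 48.3, 108 and 33.2 against 64.8, 121 and 51.3 at 72 h. The groups did not overlap in any line at 24 h, and at 72 h they overlapped in every line, with the number 2 libraries highest under both treatments. Within libraries of the same number, KDM5B was higher in the treated library in 17 of 18 pairs. The exception was MINO number 2 at 72 h, and MINO number 1 at that time was all but level (64.75 CPM in DMSO and 64.79 in the treated library).

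In JEKO the log2 fold change of KDM5B was 0.71 at 24 h and 0.51 at 72 h. The corresponding values were 0.85 and -0.01 for MINO, and 0.20 and 0.34 for UPN-1. KDM5B was not called in any comparison by the standard fit, which is edgeR on the 12 libraries of a line, without a replicate block and with the low-count filter (adjusted p 0.478 to 1). With a block for the replicate number within each line and time, which compares libraries of the same number, KDM5B rose in MINO at 24 h (0.85, SE 0.106, adjusted p 0.000252). It also rose in the 72 h cells of UPN-1 (0.40, SE 0.0837, adjusted p 0.00457). Under the other block, for the replicate number within the line alone, neither was called (adjusted p 0.0658 and 0.614). Without a block, the 24 h increase in MINO was also called when no low-count filter was set and when the fit held just those 6 libraries. The 72 h values rested on single libraries. In MINO the log2 fold change of KDM5B was 0.96 without DMSO replicate 2 and -0.88 without GS716054 replicate 2, and in UPN-1 it was 0.97 and -0.10 without the same libraries.

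Averaged over the 3 lines, the log2 fold change of KDM5B was 0.60 (SE 0.295) at 24 h and 0.28 (SE 0.284) at 72 h without the block (adjusted p 0.397 and 0.689). With the block it rose by 0.60 (SE 0.0800, adjusted p 3.77e-05) and 0.36 (SE 0.0742, adjusted p 0.00145). Under the block for the number within the line it was not called at either time (adjusted p 0.0651 and 0.253). Without the low-count filter and without a block it was called at 24 h (0.59, adjusted p 1.52e-05).

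**Figure D2:**
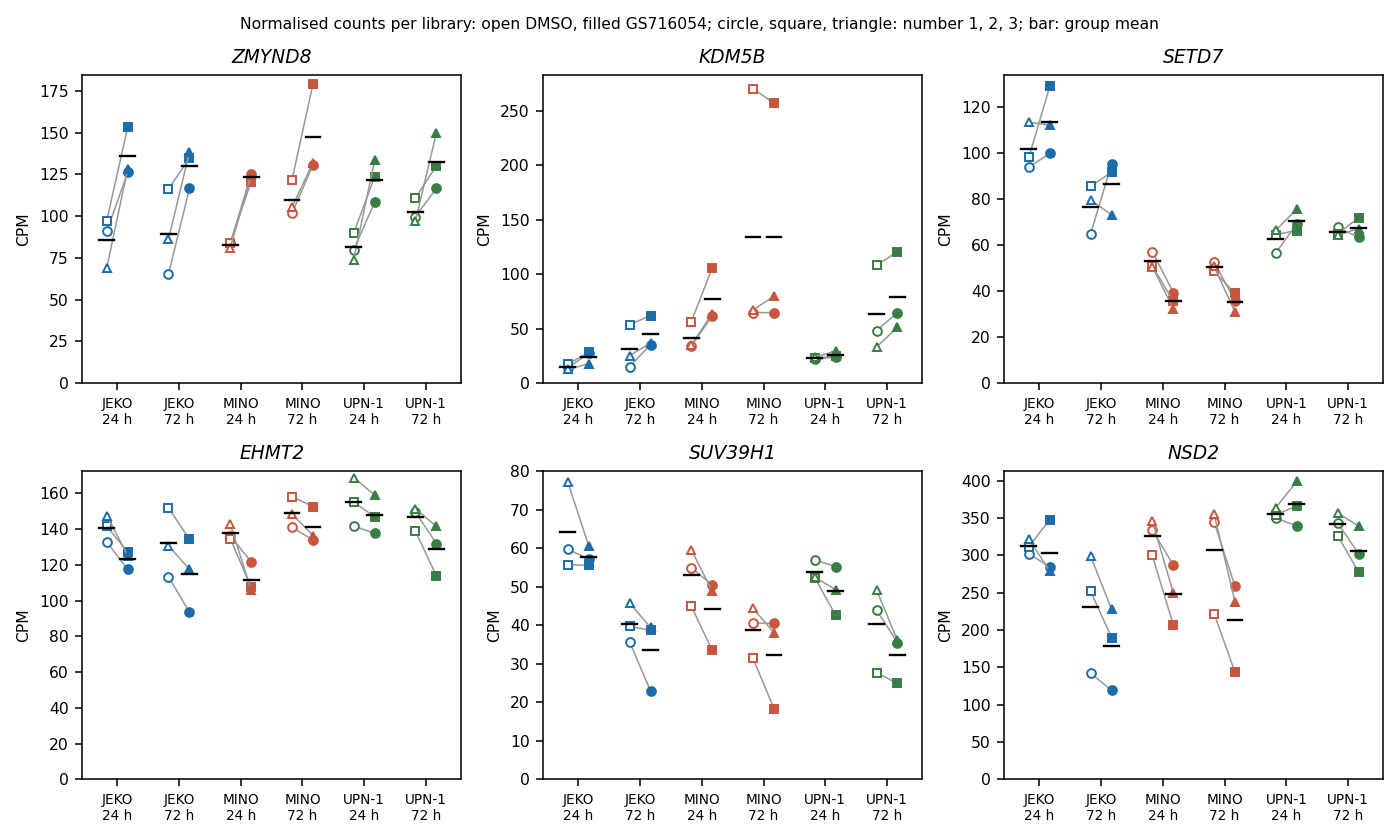
CPM of 6 members in each of the 36 libraries (open, DMSO; filled, GS716054; circle, square and triangle for replicate numbers 1, 2 and 3; black bars, group means); grey lines join libraries of the same number. ZMYND8 rises along all 18 lines, EHMT2 and SUV39H1 fall along all 18, and SETD7 lies lower after treatment in MINO; KDM5B shows the high number 2 libraries of MINO at 72 h.

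ZMYND8 (ENSG00000101040, chromosome 20, 47209214 to 47356889) was the one member raised in the mean over the lines by edgeR without a block and with the low-count filter, at both times. JEKO had 90.9, 97.2 and 69.0 CPM in DMSO libraries and 126, 153 and 128 in treated ones at 24 h, and 65.3, 116 and 86.2 against 117, 135 and 138 at 72 h. MINO had 83.7, 84.1 and 81.0 CPM against 125, 121 and 125 at 24 h, and 102, 122 and 105 against 131, 179 and 132 at 72 h. UPN-1 had 80.0, 89.8 and 74.0 CPM against 108, 124 and 133 at 24 h, and 99.7, 111 and 97.1 against 117, 130.0 and 149.9 at 72 h. Every treated library lay above every DMSO library of its line and time, in all 6 comparisons. Of 17980 genes, 10 (0.0556%) showed this in the upward direction, and no member showed it in the downward direction, where 0.0111% of genes did. At 72 h in JEKO the gap was narrow, with 116 CPM in the highest DMSO library and 117 in the lowest treated one.

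The mean log2 fold change of ZMYND8 over the lines was 0.61 at 24 h, with an SE of 0.0924 and an adjusted p of 0.0004 by edgeR over 36 libraries. The 72 h value was 0.45 (SE 0.0919, adjusted p 0.00278). Both calls were kept without any 1 of the 18 libraries compared, with adjusted p values up to 0.00169 and 0.0089. ZMYND8 was the only one of 48 members called in these 2 fits, where 0.929% of all genes were called at 24 h and 4.66% at 72 h. Without a block, other settings added KDM5B at 24 h (no low-count filter) and NSD2 at 72 h (no filter, or without JEKO DMSO 72 h replicate 1). NSD2, KMT5A and KMT5B were added without MINO DMSO 72 h replicate 2, and KMT5A without replicate 3 of the treated MINO or treated UPN-1 libraries at 72 h. Within single lines its log2 fold changes at 24 h and 72 h were 0.65 and 0.55 (JEKO), 0.55 and 0.42 (MINO), and 0.58 and 0.38 (UPN-1), and none of these passed the threshold in the standard fits (adjusted p 0.0523 to 0.756). The MINO increase at 72 h passed when both libraries numbered 2 were left out (0.31, adjusted p 0.0392). With the block ZMYND8 rose in all of them but JEKO at 24 h (adjusted p 0.103 there and 0.00113 to 0.0367 elsewhere). The effect did not differ detectably between times or among lines by edgeR, with or without the block. DESeq2 called ZMYND8 in MINO at both times and in UPN-1 at 24 h.

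SETD7 (ENSG00000145391, chromosome 4, 139495941 to 139606699), a monomethylase of H3K4 and of non-histone proteins, was the only member called in a single line by the standard fits, and only in MINO. Its MINO values were 57.2, 50.9 and 50.7 CPM in DMSO and 39.4, 35.6 and 32.3 in treated libraries at 24 h, and 52.8, 48.6 and 50.8 against 35.7, 39.0 and 30.9 at 72 h. In JEKO it had 94.0, 98.2 and 114 CPM against 99.97, 129 and 112 at 24 h, and 65.0, 85.8 and 79.7 against 95.3, 91.7 and 73.2 at 72 h. In UPN-1 the values were 56.7, 64.7 and 66.6 CPM against 69.3, 66.4 and 75.7 at 24 h, and 67.8, 65.0 and 64.6 against 63.4, 71.9 and 67.2 at 72 h. All 6 treated MINO libraries lay below all 6 MINO DMSO libraries, while the groups of JEKO and UPN-1 overlapped at both times.

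SETD7 fell in MINO by edgeR, with a log2 fold change of -0.59 at 24 h (SE 0.13, adjusted p 0.034). The value for 72 h was -0.54, with an SE of 0.13 and an adjusted p of 0.0297. Omitting any single library of the 6 ended the 24 h call (adjusted p 0.0635 to 0.159). The 72 h call ended when replicate 1 or 3 of either treatment was omitted (adjusted p 0.0574 to 0.105), when no low-count filter was set (0.0503) and when the fit held just the 6 libraries (0.168), and it was kept without both libraries numbered 2 (0.0049). The log2 fold changes of SETD7 at 24 h and 72 h were 0.15 and 0.18 for JEKO, and 0.16 and 0.05 for UPN-1. A test of the difference among lines gave an adjusted p of 0.0763 at 24 h and 0.0772 at 72 h without the block, and 0.00635 and 0.0107 with it.

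Counts over all members give the scale of these changes. In the standard fits, 0 of 48 members were called in JEKO at 24 h, where 0.018% of all genes were called, and 0 at 72 h, where 0.3% were. One member of 48, SETD7, was called in MINO at 24 h against 2.39% of all genes, and again 1 at 72 h against 5.56%. In UPN-1, 0 members were called at 24 h and 0 at 72 h, against 0.0262% and 0.334% of all genes. At an unadjusted p under 0.05 the member counts for 24 h and 72 h were 1 and 2 (JEKO), 7 and 9 (MINO), and 3 and 2 (UPN-1). Over all genes they were 662 and 1438 of 16690 (JEKO), 2666 and 3333 of 15028 (MINO), and 577 and 1130 of 15248 (UPN-1). DESeq2 called 0 and 0 members (JEKO), 4 and 4 (MINO), and 1 and 0 (UPN-1). Beside SETD7, these were ZMYND8, KDM4A and EHMT2 in MINO at 24 h, ZMYND8, KDM1A and KDM3B there at 72 h, and ZMYND8 in UPN-1. The share of all genes that DESeq2 called is not given here. The median log2 fold change of the members stayed between -0.09 and 0.05 in all 6 comparisons, and that of all genes between -0.03 and 0.01.

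With the block within time, 0 and 1 members were called in JEKO at 24 h and 72 h (0.0899% and 3.34% of all genes), 13 and 7 in MINO (15.8% and 20.2%) and 3 and 6 in UPN-1 (1.5% and 7.47%). In MINO at 24 h the 13 were 27.1% of the members and at 72 h the 7 were 14.6%. An edgeR fit of just the 6 MINO libraries of 24 h, without a block, called 11 of these 13, all but KDM7A and KDM6B. The share of all genes called in that fit is not given here. The members' share with the block lay above that of all genes in MINO at 24 h and below it at 72 h. Groups that did not overlap were counted as well, with the share of all genes in parentheses. In MINO at 24 h, all treated libraries were higher for 12 members (17.4%) and lower for 9 (13.1%), and at 72 h for 3 (11.1%) and 3 (9.1%). For JEKO the counts were 5 higher (6.79%) and 3 lower (5.29%) at 24 h, then 2 (6.47%) and 2 (4.59%). For UPN-1 they were 6 higher (7.09%) and 1 lower (6.38%) at 24 h, then 2 (5.28%) and 0 (3.59%).

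**Figure D3:**
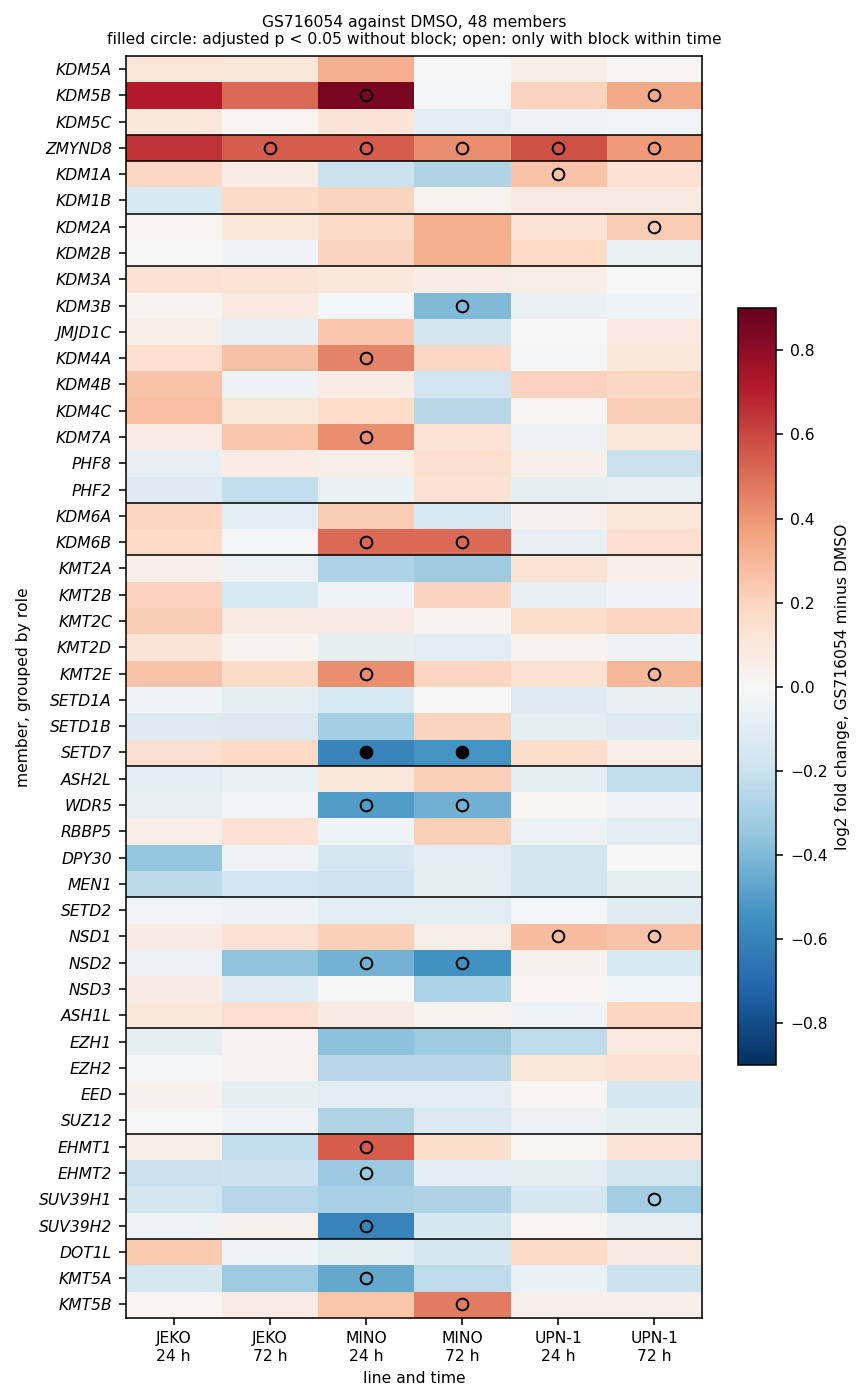
Log2 fold change of GS716054 against DMSO for each of the 48 members (rows, grouped by role) in each line and time (columns), from the edgeR fits without block; filled circles mark adjusted p under 0.05 without the block, and open circles those that, of these 2 kinds of fit, were reached only with the block within time. ZMYND8 is red in every column, SETD7 is blue in MINO only, and the MINO columns hold 13 circles at 24 h and 7 at 72 h.

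Among the other erasers, no member was called by the standard fits. DESeq2 called KDM4A in MINO at 24 h (adjusted p 0.0267), and KDM1A (0.00925) and KDM3B (0.0482) there at 72 h. Members not called by the standard fits fall outside the rule for named genes and were chosen after their values were seen, unless another part of the rule names them. In MINO at 24 h the H3K9 erasers KDM4A (log2 fold change 0.45, adjusted p 0.0227) and KDM7A (0.43, 0.0181) rose with the block. KDM6B had the largest increase of any member in MINO at 72 h, 0.51 (SE 0.350, adjusted p 0.431 without the block), and with the block it rose at both times (0.52 and 0.41, adjusted p 0.0169 and 0.038). Its MINO values were 63.8, 109 and 80.0 CPM in DMSO against 105, 159 and 105 in treated libraries at 24 h, and 109, 193 and 113 against 148, 327 and 119 at 72 h. Treated and DMSO libraries of KDM6B overlapped at both times, the treated library was higher within each pair of numbers, and the 72 h value was -0.06 without the treated library numbered 2 and 0.23 without both libraries of that number.

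KDM3B, an H3K9 eraser close to KDM3A, fell with the block in 72 h MINO cells (log2 fold change -0.39, adjusted p 0.0217). Without both libraries numbered 2 it was called there with no block (-0.52, adjusted p 0.0177), as was its relative JMJD1C (-0.39, adjusted p 0.0366). KDM1A, the amine oxidase that removes mono- and dimethyl H3K4, rose in UPN-1 at 24 h with the block (0.25, adjusted p 0.027), from 352 ± 13.5 to 423 ± 23.3 CPM (SD, n = 3 each). In MINO, KDM1A went from 198.6 ± 4.51 to 177 ± 1.83 CPM at 24 h, and its effect differed among the lines with the block (adjusted p 0.0337). The H3K36 eraser KDM2A, a CpG-island binding protein, rose in UPN-1 at 72 h with the block (0.23, adjusted p 0.0308). Exons of KDM4A share 40.2% of their length with another gene on the same strand, so its count is uncertain.

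Among the H3K4 writers, KMT2E, a reader-like relative of the KMT2 enzymes, leaned upward in 17 of 18 same-number pairs. With the block it rose in MINO at 24 h (log2 fold change 0.42, adjusted p 0.0255) and in UPN-1 at 72 h (0.30, adjusted p 0.0124). The writers KMT2A, KMT2B, KMT2C, KMT2D, SETD1A and SETD1B were not called in any of the 6 comparisons with or without the block. KMT2A was called in MINO at 72 h once both libraries numbered 2 were left out (-0.69, adjusted p 0.00353, against -0.32 with them), among 7 members called in that fit. Its share of all genes called is not given here. Of the subunits, WDR5 fell in MINO with the block at both times (-0.52, adjusted p 0.00847, and -0.44, adjusted p 0.0173), from 72.8 ± 2.26 to 52.3 ± 9.0 CPM at 24 h (SD, n = 3 each). The 72 h means were 63.7 ± 10.54 CPM in DMSO and 47.8 ± 10.6 CPM in treated libraries. The log2 fold changes of WDR5 were -0.07 and -0.02 for JEKO, and 0.01 and -0.03 for UPN-1. Its effect differed among the lines at 24 h with the block (adjusted p 0.0307).

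DPY30, another core subunit, had the largest decrease in JEKO at 24 h, -0.35 (SE 0.194, adjusted p 1), from 37.7 ± 1.53 to 30.0 ± 7.39 CPM (SD, n = 3 each), with overlapping groups. Exons of DPY30 share 50.8% of their length with MEMO1, so its count is uncertain. MEN1, the menin adaptor of KMT2A and KMT2B complexes, was lower in 16 of 18 same-number pairs and was not called within any line.

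The H3K36 writer NSD2, a dimethylase activated by translocation in myeloma, had the largest decrease in JEKO at 72 h (-0.37, SE 0.254, adjusted p 0.807) and in MINO at 72 h (-0.54, SE 0.234, adjusted p 0.192). JEKO had 142, 252 and 299 CPM in DMSO libraries and 119, 189.6 and 228 in treated ones at 72 h. MINO had 345, 222 and 355 CPM against 258, 143 and 238 at that time, and without both libraries numbered 2 NSD2 was called there (-0.53, adjusted p 0.0214). The spread between replicate numbers was wide in both, and treated libraries were lower within each pair of numbers. With the block NSD2 fell in MINO at 24 h (-0.44, adjusted p 0.0179) and 72 h (-0.56, adjusted p 0.00405). In UPN-1 at 24 h its log2 fold change was 0.04. NSD1, its close relative, rose in UPN-1 with the block, by 0.28 at 24 h (adjusted p 0.0298) and 0.25 at 72 h (adjusted p 0.0186).

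The PRC2 subunits among the members, EZH1, EZH2, EED and SUZ12, gave no call in any treatment comparison, with or without the block. Accessory subunits of PRC2 were not members, and calls among them are given with the other genes below. EZH1, the PRC2 catalytic subunit of resting cells, had the largest decrease of any member in UPN-1 at 24 h, from 14.7 ± 1.60 to 12.6 ± 1.16 CPM (log2 fold change -0.23, SE 0.231, adjusted p 1). EZH2, the catalytic subunit of dividing cells, had log2 fold changes between -0.26 and 0.13.

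The H3K9 writers EHMT2 and SUV39H1 were lower in the treated library in 18 of 18 same-number pairs, as were 75 of 17980 genes (0.417%), and ZMYND8 was higher in 18 of 18, as were 0.517% of genes. EHMT2 in JEKO went from 141 ± 7.44 to 123 ± 5.04 CPM at 24 h (SD, n = 3 each). At 72 h its JEKO means were 132 ± 19.3 CPM in DMSO and 115 ± 20.5 CPM in treated libraries. The log2 fold changes of EHMT2 ran from -0.33 to -0.08 over the 6 comparisons, and with the block its decrease in 24 h MINO cells was called (-0.34, adjusted p 0.0401). SUV39H1, a trimethylase of pericentromeric H3K9, had the largest decrease in UPN-1 at 72 h, from 40.3 ± 11.2 to 32.2 ± 6.31 CPM (-0.31, SE 0.187, adjusted p 0.84). With the block it fell there (-0.30, adjusted p 0.0378). Its smallest pair difference was -0.00020 on the log2 scale, in MINO at 72 h, so 1 of the 18 pairs was all but level. Exons of SUV39H1 share 21.2% of their length, and those of EHMT2 8.11%, with genes on the opposite strand, and the strand setting of the counting was not given.

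SUV39H2, the paralogue of SUV39H1, had the largest decrease in MINO at 24 h, from 30.4 ± 3.54 to 20.4 ± 4.85 CPM (SD, n = 3 each; log2 fold change -0.60, SE 0.321, adjusted p 0.358). With the block it fell (-0.61, adjusted p 0.0283). EHMT1, the partner of EHMT2, moved the other way in MINO at 24 h and rose with the block (0.55, adjusted p 0.0065), and its effect differed among the lines (adjusted p 0.0322 with the block). The H4K20 monomethylase KMT5A fell in MINO at 24 h with the block (-0.46, adjusted p 0.0101), and KMT5B, which adds further methyl groups to H4K20, rose in MINO at 72 h with the block (0.48, adjusted p 0.0082) and, with no block, without both libraries numbered 2 (0.55, adjusted p 0.00763). DOT1L was not called in any treatment comparison.

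Averaged over the lines with the block, 12 members were called at 24 h (7 higher, 5 lower), where 9.2% of all genes were called, 5.44% higher and 3.77% lower. At 72 h, 10 members were called (5 higher, 5 lower), against 16.7% of all genes, 8.21% higher and 8.44% lower. With the block for the number within the line, 1 member, ZMYND8, was called at 24 h and 5 at 72 h, namely ZMYND8, KDM2A, NSD2, SUV39H1 and KMT5A. Of the calls under the block within time, KDM5B, ZMYND8 and KMT2E were higher at both times. WDR5, EHMT2 and KMT5A were lower at both times under that block. At 24 h alone the calls added KDM4A, KDM4B, NSD1 and EHMT1 as higher and DPY30 and MEN1 as lower. At 72 h alone they added KDM2A and KMT5B as higher and NSD2 and SUV39H1 as lower. Apart from KDM5B, ZMYND8 and NSD2, the mean log2 changes of these members lay between -0.30 and 0.28. NSD2 had -0.35 (SE 0.0533, adjusted p 4.87e-05 with the block and 0.109 without it) at 72 h, and without the libraries of JEKO and MINO that stood apart its adjusted p was 0.00542 with no block.

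**Figure D4:**
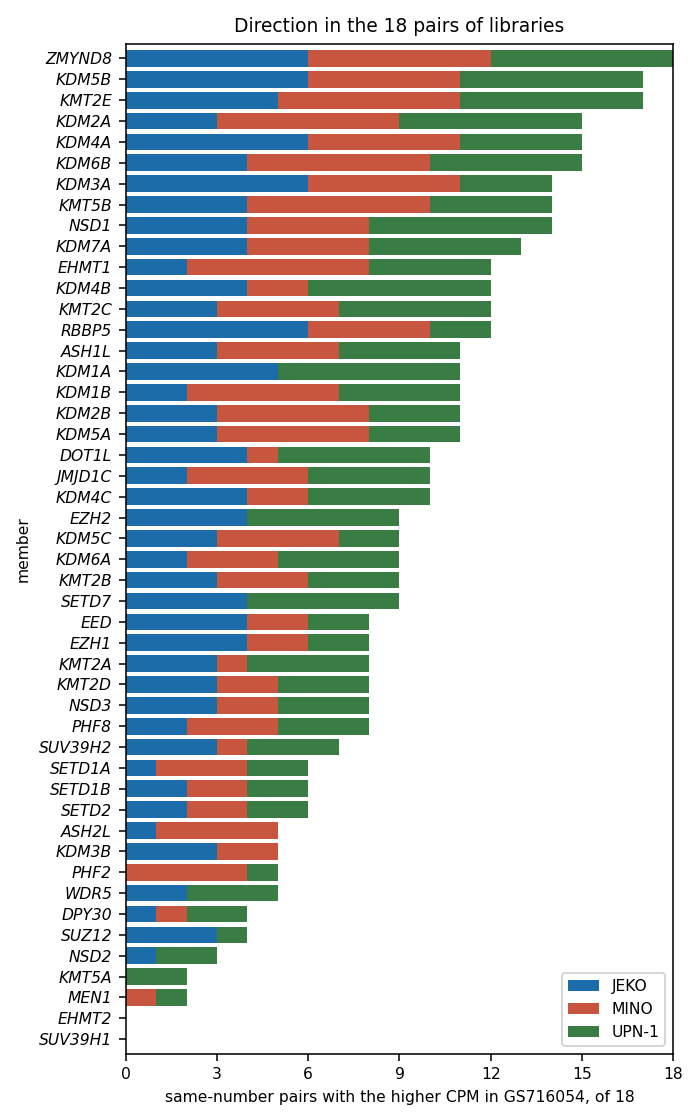
Number of same-number pairs (of 18, stacked by line) in which the GS716054 library had the higher CPM, for each of the 48 members. ZMYND8 reaches 18, KDM5B and KMT2E reach 17, and EHMT2 and SUV39H1 stay at 0.

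Over all members, 3 were higher in 16 or more of the 18 pairs and 4 were lower in as many, against 3.36% and 2.84% of all genes. Without the block, the treatment effect did not differ between 72 h and 24 h for any member by edgeR. In JEKO, MINO and UPN-1, 0 members were called, against 0%, 0.0133% and 0% of all genes. At an unadjusted p under 0.05 there were also 0 members, against 299 of 16690, 755 of 15028 and 232 of 15248 genes. With the block, KDM5B in MINO had a smaller effect at 72 h than at 24 h (difference -0.81, SE 0.147, adjusted p 0.0254; 0.679% of all genes called). No member passed that test in JEKO or UPN-1 (0% and 0.0459% of all genes). Without the block, the effect differed among the lines for 0 members at 24 h and 0 at 72 h (0.106% and 1.01% of all genes). At an unadjusted p under 0.05 it differed for 3 and 2 members (1326 and 2007 of 17980 genes). With the block it differed for 4 members at 24 h (5.74% of all genes) and 3 at 72 h (9.78%). 

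Another 49 genes of histone lysine methylation, such as further SET-domain proteins, PRC2 accessory subunits and HP1 proteins, gave 0 calls in each of the 6 treatment comparisons without the block, of 44 tested in JEKO and 43 each in MINO and UPN-1. With the block the counts were 0 and 1 (JEKO), 3 and 2 (MINO), and 0 and 1 (UPN-1). In the mean over the lines, 46 were tested. Without the block 0 were called at 24 h and 1 at 72 h (0.929% and 4.66% of all genes). With the block 3 and 3 were called (9.2% and 16.7%). The 1 call without the block was PHF19, a PRC2 accessory subunit, which was lower. With the block it was also called lower at 72 h in each line, and AEBP2 in MINO. Both were chosen after their values were seen.

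Time in culture was examined in DMSO cells alone. Between DMSO cells at 24 h and at 72 h, 16 of 48 JEKO members were called (33.3%; 5 higher, 11 lower), against 31.7% of all genes (17.1% higher, 14.6% lower). EZH1 rose from 9.55 ± 0.827 to 26.9 ± 4.77 CPM (SD, n = 3 each; log2 fold change 1.49, SE 0.282, adjusted p 0.00245). The other PRC2 subunits fell, EZH2 by 0.71, EED by 0.64 and SUZ12 by 0.66 on the log2 scale (adjusted p 0.0389, 0.0151 and 0.00991). The EZH2 call was lost in 5 of 6 omissions of a single library (adjusted p up to 0.14), and those of EED and SUZ12 without DMSO 24 h replicate 3. All DMSO values of EZH1 at 72 h, 30.9, 28.1 and 21.6 CPM, lay above those at 24 h, 10.4, 9.56 and 8.72 CPM. For EZH2 the 72 h libraries had 74.4, 50.5 and 92.6 CPM and the 24 h libraries 114, 115 and 128, again without overlap.

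Of the erasers, KDM5B (1.08, adjusted p 0.0365), KDM6B (1.08, adjusted p 0.000779), KDM4B (0.89, adjusted p 0.00665) and KDM4C (0.82, adjusted p 0.0101) rose in JEKO with time, and KDM5A (-0.49, adjusted p 0.0358) and the H3K9 eraser PHF8 (-0.43, adjusted p 0.0413) fell. The H3K9 writers SUV39H2 (-1.21, adjusted p 0.00117) and SUV39H1 (-0.67, adjusted p 0.0189) fell, as did SETD1A and the subunits RBBP5, ASH2L and WDR5 (-0.51, -0.91, -0.54 and -0.37). WDR5 was near the threshold (adjusted p 0.0494), and its call was lost in all 6 single omissions (adjusted p 0.0764 to 0.24), with DESeq2 size factors and without the low-count filter. SETD1A, KDM5A and KDM5B each lost their call in 4 of the 6 omissions and PHF8 in 5, while EZH1, KDM4B, KDM6B, RBBP5 and SUV39H2 kept theirs in all 6. Without both JEKO 72 h libraries numbered 1, the calls of EZH2 (adjusted p 0.0637), KDM5A (0.0739), PHF8 (0.116), SETD1A (0.0704) and WDR5 (0.0717) were lost and those of JMJD1C, KDM4A and ASH1L were added. No H3K36 writer, H3K79 writer or H4K20 writer was called. The count of 16 was 5 without DMSO 24 h replicate 3, 10 without DMSO 24 h replicate 1 and 10 without DMSO 72 h replicate 1.

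In MINO and UPN-1, 0 members were called over the same interval (0.0932% and 1.47% of all genes), with 13 and 10 members at an unadjusted p under 0.05. At that level, 3580 of 15028 genes passed in MINO and 3888 of 15248 in UPN-1. EZH1 had log2 changes of 1.08 (SE 0.312, adjusted p 0.117) in MINO and 0.77 (SE 0.224, adjusted p 0.0759) in UPN-1. KDM5B had 1.67 (SE 0.586, adjusted p 0.137) and 1.48 (SE 0.355, adjusted p 0.0502). Without UPN-1 DMSO 72 h replicate 3, 10 members were called in UPN-1, and without both MINO 72 h libraries numbered 2, 8 were called in MINO, EZH1 among them (1.15, adjusted p 0.023). Shares of all genes are not given for these fits. DESeq2 was not run on the comparison of times. The comparison of times shares its 72 h DMSO libraries with the treatment comparison at 72 h, so the 2 sets of values are not independent.

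**Figure D5:**
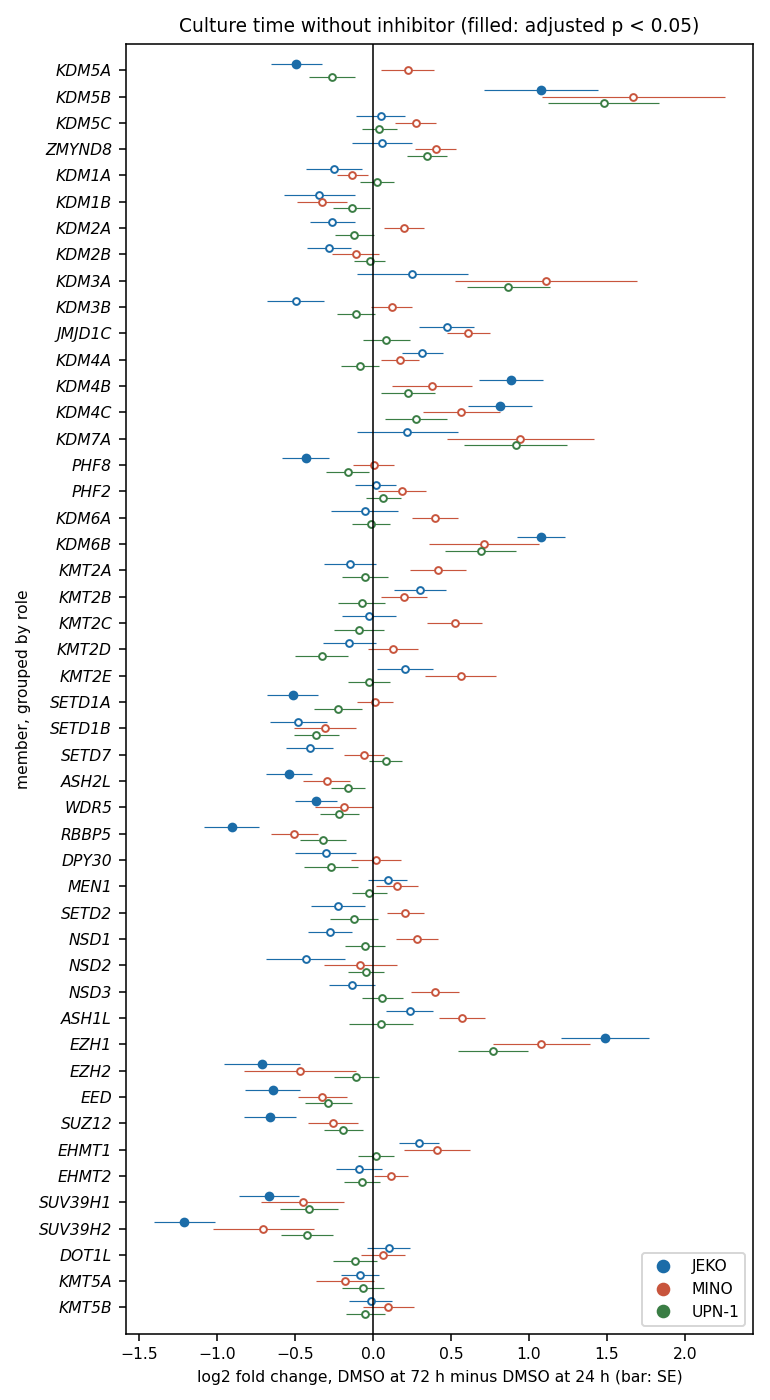
Log2 fold change of DMSO libraries at 72 h against 24 h for each of the 48 members in each line, with bars of 1 SE; filled points mark adjusted p under 0.05 (edgeR, no block). Filled points occur in JEKO only, and EZH1 and KDM5B lie to the right of 0 in all 3 lines.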

How the data were processed

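Counts of reads per gene were deposited by the authors as 1 table per library, with whole numbers for 58302 Ensembl IDs and no normalisation. Per the submitters' processing notes, HISAT2 2.2.1, HTSeq 0.13.5 and the build GRCh38 were used; neither strandedness nor counting mode was named there. Summary lines were left out, and 40.7% to 44.9% of reads lay in genes. In R 4.3.3, edgeR 4.0.16 quasi-likelihood models were fitted to all genes, per line (12 libraries, 8 residual degrees of freedom) or over 36 libraries (24), with TMM scaling and filterByExpr (minimum count 10, minimum total 15). Calls are genes whose p, adjusted by Benjamini-Hochberg across every gene tested, was under 0.05, and SEs come from the quasi-likelihood F. DESeq2 1.42.0 was an alternative for treatment within lines. Figures were drawn with matplotlib 3.10.9. The scripts were tested on simulated counts.

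Within a line and time, deviations from the group mean in same-numbered DMSO and GS716054 libraries had correlations of 0.0552 to 0.593. Libraries of different numbers had -0.521 to 0.332. The same-number correlations were the higher ones in every line and time except MINO at 72 h. There the lowest same-number value was 0.287 and the highest other value 0.332. Same-numbered libraries of one treatment at different times deviated together in part (-0.142 to 0.303). The block within time, which leaves 4 residual degrees of freedom per line, was therefore added after seeing the data. No 2 libraries agreed within counting noise (lowest chi-square per gene 3.20).

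The 48 members, the role groups, the marker and pathway lists and the alternatives were chosen with earlier results of these data known. Genes named in full are KDM5A, KDM5B and KDM5C, members called without the block in a treatment comparison or in the mean over lines or for a difference among lines, the largest increase and decrease in each treatment comparison, the 4 widest gaps between lines and the 3 highest and 3 lowest levels per kb. One marker of the B-cell list is not reported here.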

Additional observations from a re-analysis of the deposited data

Results flagged for a closer look

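All results here come from tests of a difference in the treatment effect, in edgeR with the block for replicate number within line and time, and none of them passed in the same edgeR models without a block. The effect on KDM5B in MINO was smaller at 72 h than at 24 h (adjusted p 0.0254). At 24 h the effect differed among the lines for SETD7 (adjusted p 0.00635), lower in treated MINO cells and a little higher in the other lines. SETD7 also passed with the block for the number within the line (adjusted p 0.0241 at 24 h and 0.0318 at 72 h). At 72 h it passed without any block when JEKO DMSO 72 h replicate 2 (adjusted p 0.0497) or JEKO GS716054 72 h replicate 3 (0.0468) was left out. The same test was passed by WDR5 (0.0307), also lower in treated MINO cells, by KDM1A (0.0337), lower in MINO and higher in UPN-1, and by EHMT1 (0.0322), higher in MINO. At 72 h it was passed by SETD7 (0.0107) and KDM3B (0.0476), both lower in treated MINO cells, and by KMT5B (0.0394), higher there. No explanation of these differences was tested.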

How the results depend on the processing

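With 3 libraries a group, a single library often set whether a member passed, and the part of depth was not tested. Counts of called members moved with the processing as follows. They are given without shares of all genes, so they are not a result about the members as a set. Without the low-count filter they were 2 (MINO, 24 h), 0 (MINO, 72 h), 1 (UPN-1, 24 h), 2 and 2 in the mean over lines at 24 h and 72 h, and, for DMSO cells over time, 8 in MINO and 5 in UPN-1. With size factors of DESeq2, 1 member was called over time in UPN-1. DESeq2 itself called 4 and 4 in MINO at the 2 times and 1 in UPN-1 at 24 h. With only the 6 libraries compared the counts were 11 (MINO, 24 h), 0 (MINO, 72 h) and 1 (UPN-1, 24 h).

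A replicate block for the number within the line gave 3 in MINO at 24 h, 2 in MINO at 72 h, 5 in the mean over lines at 72 h, 1 and 1 for a difference among lines, and 9 in MINO and 10 in UPN-1 for DMSO over time. The replicate block within time gave 1 in JEKO at 72 h, 13 and 7 in MINO, 3 and 6 in UPN-1, 12 and 10 in the mean over lines, 4 and 3 for a difference among lines and 1 for the change of the MINO effect with time. Both blocks gave 0 in JEKO at 24 h. Without both MINO 72 h libraries numbered 2, 7 members were called in MINO at 72 h and 8 over time in MINO DMSO cells, and without these and both JEKO 72 h libraries numbered 1, 2 were called in the mean over lines at 72 h.

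Leaving out 1 library at a time gave 5 to 16 called members for JEKO DMSO over time, 0 to 0 in MINO at 24 h, 0 to 5 in MINO at 72 h, 0 to 1 for MINO and 0 to 10 for UPN-1 DMSO over time, 1 to 1 and 1 to 4 in the mean over lines at 24 h and 72 h, 0 to 1 for a difference among lines at 72 h and 20 to 26 for levels among lines. The 5 in MINO at 72 h came without DMSO replicate 2, as did the 4 in the mean. The cause of these moves was not tested.

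Under the settings that turned a value's direction, that value was not called. With the block within time, however, KDM6B in MINO and KDM5B in UPN-1 were called higher at 72 h by edgeR (adjusted p 0.038 and 0.00457). Both turned direction when 1 library was omitted without a block. At 72 h, the log2 fold change of KDM5A was -0.0194 in JEKO without both libraries numbered 1, -0.00063 in UPN-1 without the filter, and in MINO -0.0042 with DESeq2 size factors, -0.0042 without the filter, -0.0023 with the block within time, -0.0029 with DESeq2 and -0.0525 without both libraries numbered 2. That of KDM5C in JEKO was -0.00029 without the filter and -0.11 without both libraries numbered 1, and that of KDM5B in MINO was 0.0316 with the replicate block within line, 0.0432 with the block within time and 0.10 without both libraries numbered 2. Over single omissions at 72 h, KDM5A ran from -0.0888 to 0.20 (JEKO), -0.19 to 0.12 (MINO) and -0.0897 to 0.13 (UPN-1), KDM5C from -0.15 to 0.10 (JEKO) and -0.11 to 0.0481 (UPN-1), KDM5B from -0.88 to 0.96 in MINO and -0.10 to 0.97 in UPN-1, and KDM6B from -0.0556 to 0.78 in MINO. At 24 h in UPN-1, KDM5A ran from -0.0754 to 0.12 and KDM5C from -0.0747 to 0.021.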
